A study of Mus musculus with 6 samples.

Results

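Genes named Zfp with a number encode zinc finger proteins of the mouse. Of the 7182 genes with a splicing choice in the hepatocyte tables, 62 carried such a name. They were taken by gene symbol, without use of any PSI value, but a gene is in the tables only if a splicing choice was quantified on a diet. They held 174 of the 32799 local splicing variations (LSVs). An LSV is the set of spliced junctions and retained introns that share 1 reference exon at its start or end. The usage of each junction or intron is its PSI (percent spliced in), given here on a scale of 0 to 1.

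The hepatocytes came from the livers of male C57BL/6J mice on 2 diets. The high-fat diet (HFD) held 60% fat, the low-fat diet (LFD) held 10% fat, and each lasted 12 weeks after chow of 13.5% fat that was given until 8 weeks of age. Each diet had 3 mRNA libraries, but the tables give 1 pooled value per diet and junction. Errors are therefore posterior standard deviations (SDs), which cover the reads and not the animals, no test between animals could be made, and the depth of each library is unknown.

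A C2H2 zinc finger is a short fold in which a pair of cysteines and a pair of histidines hold a zinc ion, and arrays of such fingers read DNA or RNA sequence. The largest group adds a KRAB box, which recruits the corepressor TRIM28 and through it enzymes that silence chromatin, above all at retroelements. Other members have different roles: the CCCH protein Zfp36 destabilises mRNA, and Zfp598 is a ubiquitin ligase that senses collided ribosomes. In the GENCODE M21 annotation, the longest coding transcript of 18 of the 62 genes had both fingers and a KRAB box. A further 41 had fingers with no KRAB match, and Zfp330, Zfp36 and Zfp36l1 had no C2H2 match. In all 18 KRAB genes the fingers lay in 1 exon.

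The sequences below belong to the 5 splice choices on which the account turns, and were read from GENCODE M21 transcripts (mm10), 5′ to 3′. For Zfp809 (chromosome 9, + strand) each line joins the last 15 bases of the donor exon to the first 15 bases of the accepted exon, in capitals, to show what differs between the acceptors at chr9:22236202 and chr9:22236028.
Zfp809, distal acceptor: gcctggtgttcctggACCCCTGCATTGCCA
Zfp809, proximal acceptor: gcctggtgttcctggCTTAATGCCACATGA
The Zfp384 cassette exon (chr6:125031671-125031853, + strand) is shown because it codes for fingers, and capitals mark the codons of the 1 C2H2 match that lies wholly inside it.
Zfp384, cassette exon: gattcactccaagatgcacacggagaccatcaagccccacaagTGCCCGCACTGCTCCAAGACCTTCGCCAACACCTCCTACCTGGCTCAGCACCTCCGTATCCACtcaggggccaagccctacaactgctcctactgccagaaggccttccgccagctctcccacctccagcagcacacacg
The Zfp207 cassette exon (chr11:80393084-80393176, + strand) is shown because the authors' table from another splicing program, JUM, lists it.
Zfp207, cassette exon: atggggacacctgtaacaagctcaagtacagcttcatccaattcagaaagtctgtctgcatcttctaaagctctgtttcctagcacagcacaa
In Zfp445 (chr9:122857067-122857102, - strand) capitals mark the bases between a pair of donor sites, and in Zfp91 (chr19:12778046-12778624, - strand) the 3 bases lost when the distal of a pair of acceptors is used.
Zfp445, between the donors: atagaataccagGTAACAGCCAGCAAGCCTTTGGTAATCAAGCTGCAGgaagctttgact
Zfp91, proximal acceptor: tcccggtggcattagTAGtgatgaggaaga

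The first comparison asked which Zfp splicing choices could be measured on each diet. The HFD table held 82 Zfp LSVs in 33 genes, against 167 LSVs in 58 genes in the LFD table, and 75 LSVs in 28 genes were in both. On HFD, 44 genes had fewer LSVs than on LFD, 14 had the same number and 4 had more. Of the 58 genes with LSVs on LFD, 29 had no LSV at all on HFD, against 1065 of 7095 over all genes. Of the 33 genes with LSVs on HFD, 4 had no LSV at all on LFD, against 87 of 6117 over all genes. These were Zfp426, Zfp513, Zfp692 and Zfp771. Of the 167 Zfp LSVs on LFD, 55.1% were missing from the HFD table, against a background of 16.6% of the LSVs of all genes. In the other direction, 8.54% of the 82 Zfp LSVs on HFD were missing on LFD, against 1.94% over all genes. Put as retention, 44.9% of Zfp LSVs on LFD were also on HFD (exact binomial 95% interval 37.2% to 52.8%), against 83.4% over all genes. LSVs of 1 gene share reads, so the interval covers counting only.

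**Figure D1:**
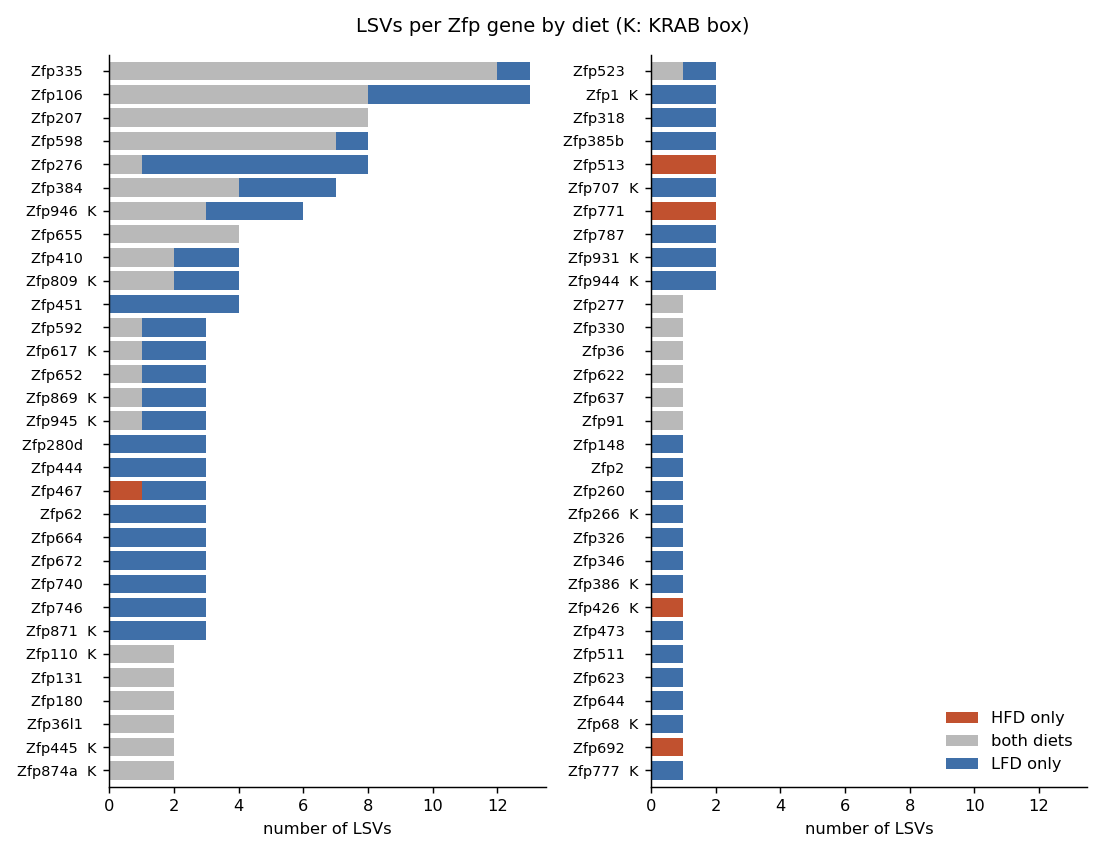
Number of LSVs in each of the 62 Zfp genes, split into those quantified on HFD only, on both diets and on LFD only, with K after the genes that have a KRAB box. LFD-only bars make up 92 of the 174 LSVs and HFD-only bars 7, and the 5 genes with the most LSVs are Zfp335, Zfp106, Zfp207, Zfp598 and Zfp276.

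Retention was listed lowest for the KRAB genes, a difference that was not tested. They kept 14 of 40 LFD LSVs on HFD (35.0%), C2H2 genes without a KRAB match 57 of 123 (46.3%), and the 3 genes without a C2H2 match 4 of 4. The classes rest on a sequence pattern in the longest coding transcript, so a KRAB box that departs from it is missed. Other zinc finger families ranged widely. Zkscan and Zscan genes kept 7 of 17 LSVs (41.2%), Zbtb genes 61.1% of 18, Zc3h genes 83.0% of 47, and Klf genes all 6. Genes of the KRAB corepressor machinery, such as Trim28, the histone methyltransferase Setdb1 and the Cbx heterochromatin proteins, kept 46 of 58 (79.3%). The hepatocyte markers, which included Alb and Apob, kept 96 of 99 LSVs. Marker genes of other liver cells had few LSVs: 4 on HFD against 7 on LFD for macrophages, 13 against 12 for endothelium, 1 against 1 for stellate cells and 5 against 5 for bile duct.

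Read support moved with this loss. The effective read number of an LSV, PSI × (1 − PSI) / variance − 1, is read from its entries with PSI from 0.1 to 0.9, which 65 of the 167 Zfp LSVs on LFD had. Its median there was 105 for Zfp genes, against 162 for all genes. Within the Zfp genes it was 93.7 for those with a KRAB match and 107 for the C2H2 genes without one. None of the 17 Zfp LSVs with fewer than 80 effective reads on LFD was found on HFD. Retention was low over all genes there too, at 7.83% of 115 LSVs under 60 reads and 20.7% of 488 from 60 to 80 reads. From 80 to 120 reads 17 of 33 were found (51.5%), against 44.3% over all genes, and from 120 to 200 reads 9 of 14 (64.3%), against 83.1%. At the 39 shared Zfp entries of intermediate PSI, the median effective read number was 82.1 on HFD and 117 on LFD. The HFD number was the lower at 39 of 39. These entries came from only 20 LSVs of 9 genes, and paired entries of an LSV mirror each other, so they are not 39 separate observations. Some belong to Zfp335, which overlaps another gene, as described below. Over all genes the medians were 169 and 220, with HFD lower at 88.7% of 7126 entries. The part of read number in the loss was not tested. In bulk RNA, a lower level of a transcript, fewer cells that make it and a shallower library cannot be told apart here.

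**Figure D2:**
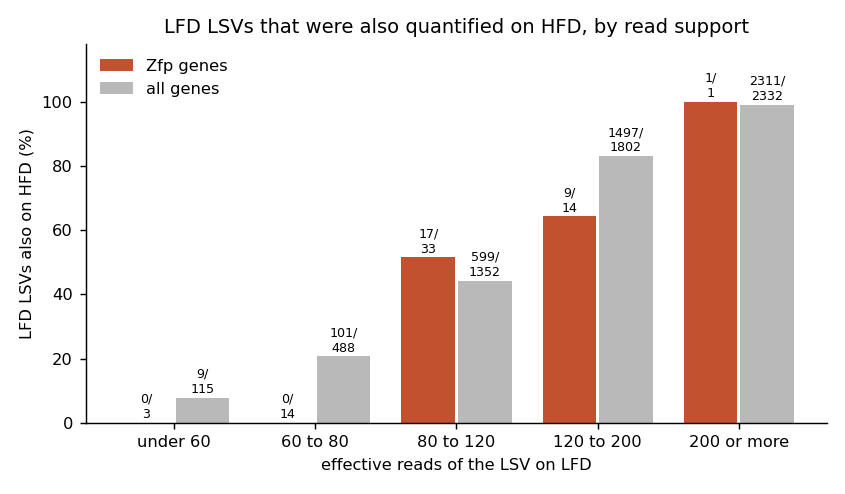
Percentage of LFD LSVs that were also quantified on HFD (y axis), by the LSV's effective reads on LFD (x axis), for Zfp genes and all genes, with the counts above each bar. Both rise with read number, and the Zfp bars are at 0 of 17 below 80 reads and at 51.5% and 64.3% in the next 2 classes.

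Most Zfp LSVs lay inside the coding span, the genomic stretch from start to stop codon of the longest coding transcript. This span includes introns, so a base inside it need not be coding. Of the 174, 139 had all their alternative bases inside the span, 22 had them 5′ of the start codon, 2 lay 3′ of the stop codon and 11 spanned an edge. Alternative bases touched finger codons in 21 LSVs. They touched the KRAB box in 4, which were a pair each in Zfp707 and Zfp871, all on LFD only. Exon skipping was in 64.9% of Zfp LSVs, alternative acceptors in 29.3%, alternative donors in 18.4% and a retained intron in 22.4%, against 66.7%, 31.0%, 21.8% and 23.7% over all genes. The 92 LSVs on LFD only and the 75 on both diets held a skipped exon in 79.3% and 46.7% of cases, against 72.9% and 65.4% over all genes. They held a retained intron in 13% and 34.7%, against 14.9% and 25.5% over all genes. Zfp335 alone held 12 of the 26 shared LSVs with an intron, and without it the share was 22.2% of 63. The same 12 LSVs held no skipped exon, so this gene also lowers the 46.7% share of exon skipping.

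The second comparison asked which shared choices differed between diets. A choice was called where its PSI on HFD and LFD lay at least 0.2 apart and outside a 95% error margin taken from both posterior variances. This rule called 2 of the 75 shared Zfp LSVs (2.67%, 95% interval 0.325% to 9.30%), 1 each in Zfp809 and Zfp335, against a background of 0.624% of shared LSVs, 0.417% of shared junctions and introns and 2.31% of genes. The Zfp shares were 4 of 171 junctions and introns and 2 of 28 genes, and so rest on single genes. The largest difference of an LSV had a median of 0.0358 over the Zfp LSVs and of 0.00681 over all shared LSVs. It reached 0.1 in 10 Zfp LSVs (13.3%), against a background of 4.5%, and in 5 of the 63 LSVs outside Zfp335 (7.94%). Zfp values were also the less precise. At the entries of intermediate PSI, 39 from 20 LSVs of 9 genes, the median posterior SD was 0.0454 on HFD and 0.0387 on LFD. Over all genes it was 0.0321 and 0.0286.

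**Figure D3:**
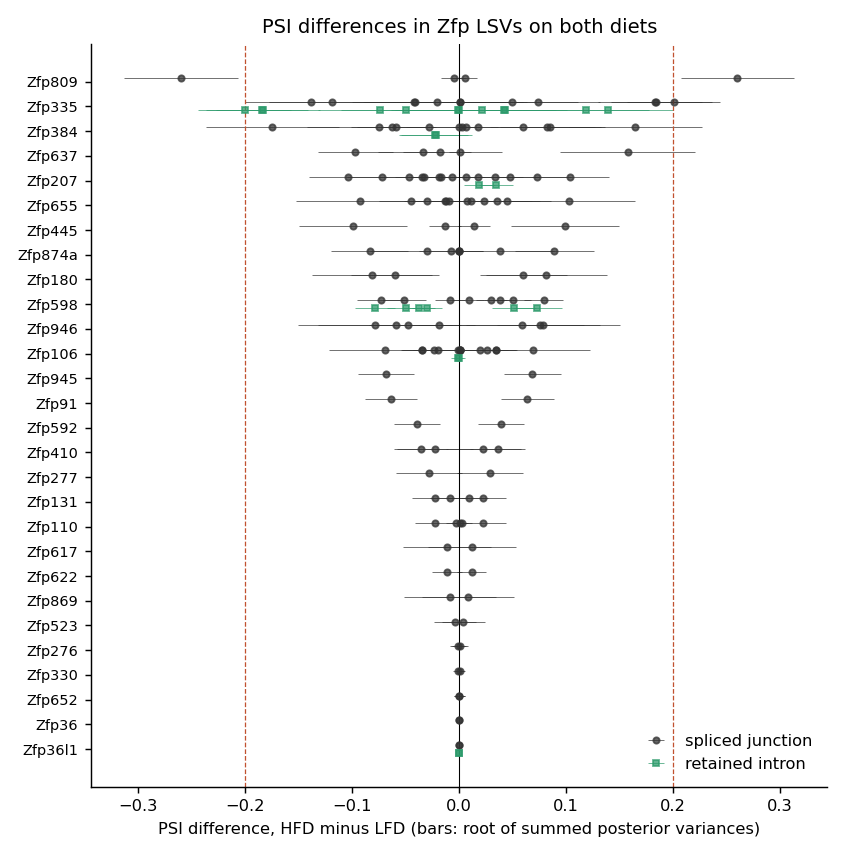
PSI difference, HFD minus LFD, of every junction and retained intron in the 75 shared Zfp LSVs, by gene, with bars for the root of the summed posterior variances and dashed lines at differences of 0.2 either way. Zfp809 lies past the lines by junctions of opposite sign, Zfp335 reaches them, and 14 of the 28 genes stay within 0.05 of no difference.

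Zfp809, a KRAB protein known to silence retroviral DNA in mouse embryonic cells, showed the largest change of the family. From the donor at 22235146 on chromosome 9, the distal acceptor 22236202 had a PSI of 0.95 ± 0.0284 on HFD and 0.689 ± 0.0446 on LFD (posterior SD). The proximal acceptor 22236028 had the rest, 0.0505 on HFD and 0.311 on LFD. The difference of 0.26 was 4.92 times its combined posterior SD, and the ranges of 1 posterior SD did not overlap. The authors' deposited table of differences gave 0.95 and 0.686 for the distal acceptor, with a difference of 0.262. It was the only Zfp LSV there, 1 of 75 against a background of 0.36%, and both values rest on the same libraries.

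The acceptors lie 174 bases apart, inside the coding span. In M21 the distal acceptor belongs to the coding transcripts Zfp809-201 and Zfp809-205. The proximal one belongs to Zfp809-203, typed as a target of nonsense-mediated decay, and to Zfp809-204, which is not coding. After the proximal acceptor, 2 bases come before the stop codon of Zfp809-203 at 22236030 to 22236032. It is the TAA in the printed junction. Zfp809-201, the longest coding transcript, has the distal acceptor and codes for the 7 fingers. The other shared LSV of the gene, which joins the same exon to its upstream partners, was at 0.987 on HFD and 0.982 on LFD for the annotated coding junction.

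**Figure D4:**
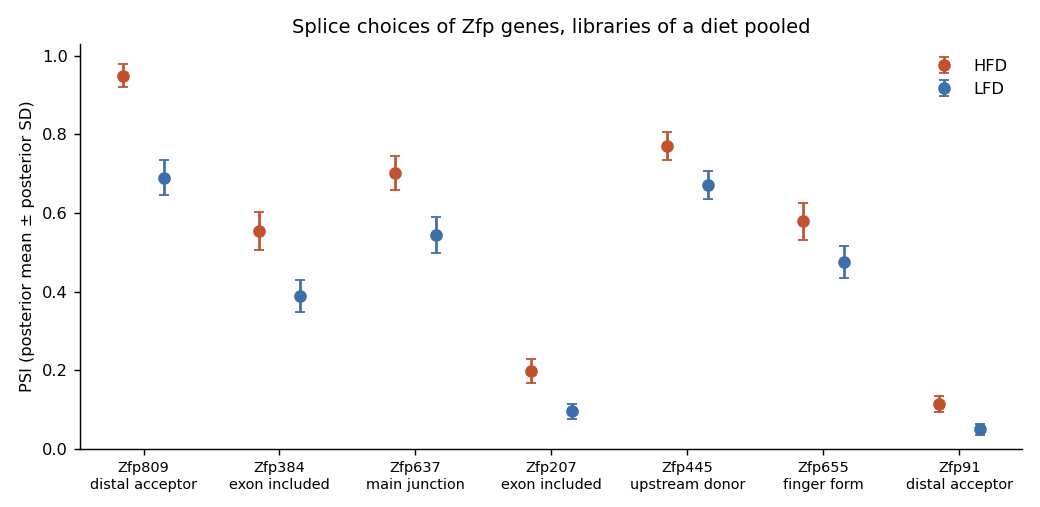
PSI (y axis, posterior mean with bars of 1 posterior SD) of 1 junction in each of 7 Zfp genes, with HFD left of LFD and the libraries of a diet pooled. All 7 were higher on HFD, from 0.95 against 0.689 for the distal acceptor of Zfp809 to 0.113 against 0.0494 for that of Zfp91. For each gene the junction drawn is the one of its choices that was higher on HFD. The choices of Zfp384, Zfp207 and Zfp655 were measured from both flanking exons and are drawn from the end with the larger difference.

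Zfp384, a transcription factor of the nuclear matrix, included its 183-base exon more on HFD. Measured from the downstream exon, inclusion was 0.554 ± 0.0474 on HFD and 0.389 ± 0.0404 on LFD, and the skipping junction 0.434 and 0.609. From the upstream exon the skipping junction was 0.605 on HFD and 0.680 on LFD, the same direction with a difference of -0.0748 against -0.175 at the downstream exon. The difference stayed under 0.2 at both ends and was not called. The exon keeps the reading frame with 61 codons and touches 3 of the 7 C2H2 matches of Zfp384-203. In the 5′ part of the coding span, the acceptor at 125024505, used by the longest coding transcripts, was at 0.853 on HFD and 0.770 on LFD from the upstream exon, and at 0.907 and 0.822 from the downstream exon. A further 3 LSVs of Zfp384 were on LFD only, among them a near even choice of 0.498 and 0.499 between joining the exon at 125025848 and skipping to 125030798.

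Zfp207, a microtubule-binding protein of the spindle that also binds RNA, had 8 LSVs on both diets. Its 93-base exon was included at 0.199 ± 0.0305 on HFD and 0.0948 ± 0.0198 on LFD from the downstream exon, and at 0.141 and 0.0684 from the upstream exon. It was the minor form on both diets and the higher on HFD at both ends, by less than 0.2. The exon adds 31 codons in frame outside the finger codons. The JUM program, run by the authors, listed this exon with a change of 0.128, headed HFD minus LFD, in the authors' deposited table (p = 0.0209, adjusted p = 0.268). The title line of that table names its control as NC, so whether the same LFD libraries were used is not certain. A neighbouring junction that skips another exon, 80389330 to 80391331, was at 0.0715 on HFD and 0.0243 on LFD. A 128-base intron near the end of the coding span was retained at 0.0469 and 0.0313 on HFD from its flanking exons, and at 0.0125, the lowest value the program gives, on LFD.

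The JUM table held 1 other Zfp gene, Zfp638, which had no LSV in the PSI tables and so is not among the 62. It encodes a nuclear protein that promotes adipocyte differentiation in the mouse. Its 102-base exon on chromosome 6 (83981684 to 83981785) had a change of -0.20 in the authors' deposited table (p = 0.0280, adjusted p = 0.312). Neither exon passed an adjusted p of 0.05, which 17.7% of the 470 listed events did.

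In Zfp637, a protein with 6 fingers and no KRAB match, 5 junctions competed after the exon that holds the start codon. The junction 117843392 to 117845025 on chromosome 6 was at 0.702 ± 0.0440 on HFD and 0.544 ± 0.0450 on LFD. The acceptor 42 bases upstream was at 0.0325 and 0.130 from the same donor. A donor 4 bases downstream shifts the frame, and the M21 transcripts that use it have 99 coding bases. Its junction to 117845025 was at 0.252 on HFD and 0.270 on LFD, within 1 posterior SD of each other. Its junction to the upstream acceptor was at 0.0126 on HFD and 0.0462 on LFD.

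Zfp655, which regulates the cell cycle in human cells, chose between exons after its start codon exon. The junction to the exon at 145242920 on chromosome 5, which in M21 only the finger-coding transcript Zfp655-202 uses, was at 0.579 ± 0.0465 on HFD and 0.476 ± 0.0410 on LFD. From the downstream exon the same junction was at 0.757 and 0.734, so the gap at that end was within the posterior SDs. Junctions of shorter coding transcripts took most of the rest, with that to the exon at 145235306 at 0.325 on HFD and 0.418 on LFD.

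Among the KRAB genes, Zfp445, which protects imprinted loci, used its upstream donor at 0.771 ± 0.0348 on HFD and 0.671 ± 0.0367 on LFD. The downstream donor adds 36 bases, or 12 codons, and was at 0.229 and 0.329. Zfp874a joined 67443334 to 67448821 on chromosome 13 at 0.940 on HFD and 0.852 on LFD from the upstream exon. From the downstream exon the same junction was at 0.544 and 0.574, the opposite direction. Zfp946 included a 66-base exon, whose junctions are not in M21, at 0.318 ± 0.0565 on HFD and 0.239 ± 0.0450 on LFD from the downstream exon, and at 0.351 and 0.293 from the upstream exon. Zfp945 joined 22857376 to 22861506 at 0.986 on HFD and 0.918 on LFD. Zfp110, Zfp617 and Zfp869 differed by at most 0.0224 at every shared entry. Near-identical KRAB genes can share reads, so the values of clustered members such as Zfp944, Zfp945 and Zfp946 on chromosome 17 are uncertain.

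Junctions that M21 places only in transcripts typed for nonsense-mediated decay, or in these and non-coding ones, numbered 10 of the 93 annotated shared Zfp junctions, in 6 genes. At the 11 measurements of these, PSI was higher on HFD at 6, some of them by trivial amounts, and lower at 5. They went both ways at sizes over 0.05. Zfp809 and Zfp874a (67447432 to 67448821) were lower on HFD, at 0.0505 against 0.311 and at 0.0552 against 0.139. The 104-base exon of Zfp180, a gene with 12 fingers, was higher, at 0.129 ± 0.0495 on HFD and 0.0476 ± 0.0268 on LFD from its downstream junction and at 0.0745 and 0.0145 from its upstream one.

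Zfp335, a coactivator that works with histone methyltransferase complexes, gave the other called LSV. Its 79-base intron (164892462 to 164892540, chromosome 2) was retained at 0.0150 ± 0.00914 on HFD and 0.215 ± 0.0425 on LFD, measured from the exon downstream. From the upstream exon it was at 0.0151 on HFD and 0.20 on LFD, a difference of -0.18 that the rule did not call. The other 5 shared introns of 80 to 123 bases did not move alike. The 80-base intron was at 0.0827 on HFD and 0.266 on LFD from its upstream exon, but at 0.127 and 0.0858 from its downstream exon. The 123-base intron was at 0.267 and 0.129 from upstream, but at 0.166 and 0.215 from downstream.

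All 6 introns lie inside the last exon of Pcif1 (164890877 to 164894454), a gene on the opposite strand. The LSV of that Pcif1 exon lists 6 of the same junctions as its own entries, at 0.102 to 0.165 on HFD and 0.116 to 0.150 on LFD. Reads from the exon of Pcif1 and from retained introns of Zfp335 therefore cannot be told apart in these tables, although the libraries were stranded. Without Zfp335 the rule called 1 of 63 shared Zfp LSVs. Among introns measured from both exons with a move of at least 0.05 at 1 end, the sign was the same at both ends for 1 of 5 in Zfp335 and for 2 of 2 in other Zfp genes. The Zfp335 junctions are mirror images of these introns and add no further observation. Among junctions of other Zfp genes, 2 of which are likewise the counterparts of the 2 introns, the sign was the same for 9 of 10. Over all genes it was the same for 80.5% of 2178 junctions and 85.9% of 679 introns.

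**Figure D5:**
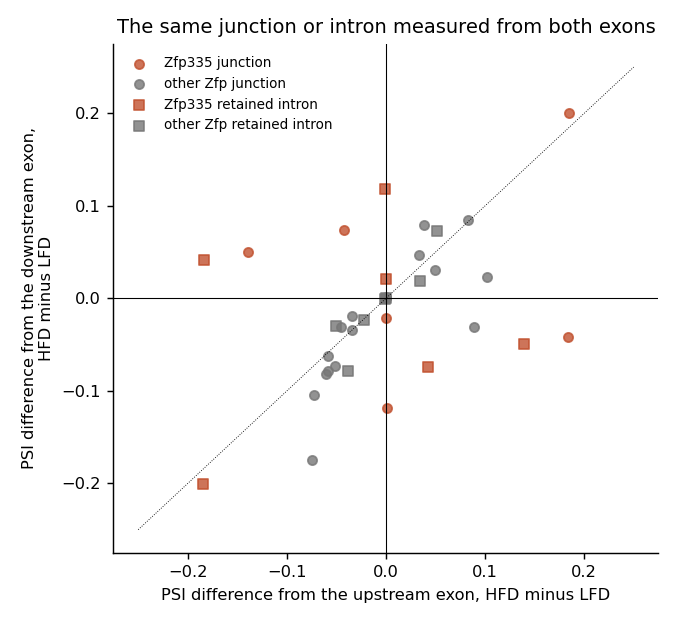
PSI difference, HFD minus LFD, of the same junction or retained intron measured from the upstream exon (x axis) and from the downstream exon (y axis), with a dotted line where the values are equal. Zfp335 has 1 junction and its mirror-image intron near the line at a size of about 0.2 and others in the off-diagonal fields, while 9 of the 10 junctions of other Zfp genes that moved by at least 0.05 have the same sign at both ends.

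The RNA-related members, a list of 14 genes of which 9 had LSVs and 6 had shared ones, held no called LSV among 27, against a background of 0.624%, at which 0 of 27 is no result about the list. Zfp598 had 3 short introns retained at low levels. The 103-base intron was at 0.0855 ± 0.0228 on HFD and at 0.0125 on LFD from its downstream exon, and at 0.0638 and 0.0125 from its upstream exon. The 82-base intron went the other way, at 0.0126 on HFD against 0.0915 ± 0.0185 and 0.0506 on LFD from its downstream and upstream exons. The 77-base intron was at 0.0128 on HFD against 0.0430 and 0.0628 on LFD. On each diet, then, the lowest values sat at the floor of the program, and no intron was above 0.1. On LFD only, Zfp598 also had donors 9 bases apart at 0.539 and 0.443.

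Zfp106, an RNA-binding protein needed by motor neurons in the mouse, had 8 shared LSVs and 5 on LFD only. Its junction 120532222 to 120545843 on chromosome 2, which skips exons, was at 0.197 ± 0.0450 on HFD and 0.128 ± 0.0283 on LFD. Its 144-base intron was retained at 0.986 and 0.987 on HFD and at 0.987 from both exons on LFD. In M21 only Zfp106-208 has the junction that removes this stretch, and the longest coding transcript, Zfp106-201, does not. The values therefore describe a rare junction. The 97-base intron of Zfp36l1, an mRNA decay factor, lies 3′ of the stop codon and was at 0.988, the highest value the program gives, on both diets. Its junction is likewise in Zfp36l1-202 only, and not in the longest coding transcript, Zfp36l1-201. Zfp36, its relative, likewise had 1 acceptor at 0.988 on both diets. Zfp622, which acts in ribosome assembly, had 0.987 on HFD and 0.976 on LFD at its main donor. Zfp326, Zfp346 and Zfp385b had LSVs on LFD only, with main junctions at 0.880, 0.982 and 0.701 to 0.861.

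Of the 20 listed genes of chromatin, transcription and ubiquitin or SUMO ligation, 8 had LSVs and 4 had shared ones. The called LSV of Zfp335 was the only one among 16, of which 12 belong to Zfp335 and share its overlap with Pcif1. The background was 0.624% of shared LSVs. Zfp91, a ubiquitin ligase, used an acceptor that removes 1 codon at 0.113 ± 0.0205 on HFD and 0.0494 ± 0.0134 on LFD, and M21 does not list that acceptor. Zfp410, which controls the chromatin remodeller gene Chd4, had its main acceptor at 0.984 on HFD and 0.949 on LFD. Zfp592 had its main junction at 0.986 and 0.947. Zfp148, Zfp451, Zfp644 and Zfp746 had LSVs on LFD only. Zfp746, a repressor of the metabolic coactivator gene Ppargc1a, skipped an exon there at 0.144 ± 0.0382 and 0.164 ± 0.0428 from its flanking exons. Zfp451, a SUMO ligase, skipped an exon at 0.0892 and 0.0993.

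The third list held 7 KRAB genes known for retroelements or imprints, of which Zfp809 and Zfp445 had LSVs, 4 of them shared and 1 called, against a background of 0.624%. The called LSV is that of Zfp809 described above, so the count is no further result about the list. The KRAB corepressor machinery had 46 shared LSVs in 12 genes. The rule called 0 of these, against a background of 0.624%. A largest difference of at least 0.1 was found in 5 (10.9%), against 4.5% over all shared LSVs, and the median was 0.0140, against 0.00681.

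Among other LSVs measured on LFD only, some held near even choices and others had a leading form. Zfp276, with 7 of its 8 LSVs on LFD only, retained a 68-base intron at 0.491 ± 0.0414 and 0.424 ± 0.0442 from its flanking exons. A pair of its donors stood at 0.608 and 0.366. Zfp787 joined 6142619 to 6143062 on chromosome 7 at 0.50 ± 0.0447. Zfp672 divided the start of its 5′ region among acceptors and donors with a leading junction at 0.425. In Zfp707, a KRAB gene, the leading acceptor was at 0.774 and 0.798 and another at 0.130 and 0.135. In all, 38 of the 92 LSVs on LFD only had an entry from PSI 0.1 to 0.9, and 1 of the 7 on HFD only. The latter is in Zfp467, where the leading junction was at 0.557 ± 0.0486. The count over all genes was not taken for LSVs on 1 diet only. Among all LSVs on LFD, 65 of 167 Zfp LSVs had such an entry, against 6089 of 32268 over all genes.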

How the data were processed

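mRNA libraries of hepatocytes (3 per diet, grouped by title) were stranded and sequenced as paired ends of 100 cycles, per the labels' protocols. FastQC, STAR and mm10 are named in the submitters' processing notes, with versions not given in the sources used here. The authors deposited MAJIQ tables of PSI (a fraction of 0 to 1) with posterior variance per diet, a table of PSI differences from a run marked strict, per the file headers, and a JUM table of events with p-values under 0.05. The JUM title line names the control as NC, and its column heading, HFD minus LFD, was followed. No table gives counts or values per library, so depth per library is unknown.

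LSVs were matched by ID in Python 3.11.15 with pandas 2.3.3, and 0 Zfp LSVs had different entries between diets. The PSI rule was a difference of at least 0.2, beyond a normal 95% margin from the summed posterior variances. It was tested on simulated data with moves larger than 0.2, at entries with PSI from 0.1 to 0.9 on both diets. The calls in Zfp809 and Zfp335, with a PSI above 0.9 on HFD, lie outside that range. The rule is no test between animals. All p-values are the authors'. Fingers (pattern C-X2-C-X12-H-X3 to X5-H) and KRAB boxes (6 fixed positions, 1 mismatch allowed) were counted by translating M21 transcripts, and no protein table was used. Exact binomial intervals were taken with scipy 1.17.1.

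The members, lists and tests were chosen with earlier results of these data known. Genes were named if past the rule or in an authors' table, among the 15 next largest differences with posterior SDs under 0.05, among the 5 with most LSVs or the 3 with the highest retained introns, or in a function list. Zfp277 and Zfp131, also named by this rule, differed by under 0.03. Genes such as Zfp467, Zfp672, Zfp707 and Zfp787, with no LSV on both diets, were chosen after their values were seen.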

Additional observations from a re-analysis of the deposited data

How the results depend on the processing

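The number of called Zfp LSVs, 2 as reported, moved with the rule. It was 9 with a smallest difference of 0.1 and 0 with 0.3. The share called over all LSVs was taken only under the main rule, at 0.624%, so counts under other settings have no background beside them. The Zfp number was 1 over spliced junctions only, 1 over LSVs that overlap no LSV of another gene, and 1 without Zfp335, an alternative added after the data were seen. It stayed at 2 with a stricter error margin, with posterior SDs under 0.05, and counted by gene. Counting every JUM event gave 2 Zfp events, against 0 at an adjusted p of 0.05, 0.01 or 0.1. LSVs with a difference of at least 0.1 numbered 10, and 5 without Zfp335. The 1 LSV in the dPSI table stayed under both of its alternatives. The median largest difference lay from 0.0344 to 0.0358. LSVs on 1 diet numbered 99, and 95 when matched by reference exon.

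No paired analysis was possible because no table gives values per library, and for the same reason leaving out each library was not possible. The shared set is limited in that PSI cannot show a choice on the diet where its LSV is missing. Of 171 shared Zfp entries, 72 on HFD and 44 on LFD lay under 0.02 or over 0.98, where posterior SDs are small by construction.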
